A study of Rattus norvegicus with 8 samples.

Results

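The H2AK119ub1 domains described here are stretches of the rat genome in which enriched regions lay close together and were covered mainly in sham sciatic nerve rather than in the distal stump at 1 day after transection (1 dpi). Regions from the peak lists of both conditions were pooled and joined where they lay within 5000 bp of each other. Domains were kept if they spanned at least 10 kb, if all regions together covered under 10000 bp, and if sham regions covered at least 2 times the bases of 1 dpi regions. Of 5234 joint domains that met the limits of span and coverage, 513 met the limit of the ratio and are called sham-dominated below. They held 3672 of the 181386 regions in both lists, namely 2544 of 82046 sham regions (3.10%) and 1128 of 99340 1 dpi regions (1.14%). Because the domains were selected on the bases covered in each condition, the excess of sham coverage inside them is a description and was not tested.

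H2AK119ub1 is histone H2A carrying a single ubiquitin on a lysine of its C-terminal tail, and it is deposited by the RING1 E3 ligases of Polycomb repressive complex 1 (PRC1). It is found at silent developmental genes together with H3K27 trimethylation, the mark of Polycomb repressive complex 2, and it can be removed by deubiquitinases. In peripheral nerve, Schwann cells are the main glia, and after axons are cut they leave the myelinating state and turn on a programme of injury genes, many of which carry Polycomb marks while the nerve is intact. Mapping the mark in intact and injured nerve addresses the question of where PRC1 modification differs once that programme starts.

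The animals were 2 male Sprague Dawley rats, labelled as P28 and as adult, with no transgene or engineered allele. In each rat 1 sciatic nerve was cut, and the nerve distal to the cut was collected 1 day later. The contralateral nerve of the same animals, which had received a skin incision only, served as sham. ChIP with an H2AK119ub1 antibody and sequencing of input chromatin gave 8 libraries in 4 groups of 2, and the replicates of each condition had been combined before regions were called, so that each measure below has 1 value per condition and no spread between animals. Whole nerve holds Schwann cells, fibroblasts, endothelial cells and resident immune cells, and a change in the cells present cannot be told apart from a change of the mark within a cell type. All coordinates are on the rn5 assembly, counted from 1.

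The lists differed in depth, and the condition with more reads was the injured one. The combined ChIP libraries held 19714687 tags for sham and 76420053 for 1 dpi, a 3.88-fold difference. A region needed at least 10 tags in sham and 20 at 1 dpi, equal to 5.07 and 2.62 per 10000000 tags, so that the threshold relative to depth was 1.94 times higher in sham. Over the whole lists, sham regions covered 0.862 times the bases of 1 dpi regions. The part of depth and threshold in the results below was not tested, and they cannot be told apart from the condition. Intervals in brackets are Wilson 95% intervals, which cover counting error only, and the limit given for a count of 0 is that of 3 counts. Since each condition had 1 list, no test between conditions or between kinds of domain was made.

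The sham-dominated domains were the smaller of the 2 unequal sets. They made up 9.80% (9.03 to 10.6%) of the 5234 joint domains, whereas 1793, or 34.3%, had at least 2 times as many 1 dpi as sham bases and are called 1 dpi-dominated. The remaining 2928 domains lay between these limits. Among the 279 domains left out because they covered 10000 bp or more, 0 reached a sham to 1 dpi ratio of 2, which allows a share of up to 1.08%, and 65 reached the opposite ratio. The highest sham to 1 dpi ratio among those 279 was 1.45.

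In sum over the 513 domains, sham regions covered 633 kb and 1 dpi regions 197 kb, and 40.2 kb were covered in both. The shared bases were 6.35% of the sham bases and 20.4% of the 1 dpi bases. In the domains between the limits, the corresponding shares were 25.8% of sham and 22.1% of 1 dpi bases. In 317 sham-dominated domains no base was shared by the lists, and in 196 at least 1 was. Domains without a shared base were common in every kind, with a first quartile of 0 shared bases in each. The median was 0 bp in sham-dominated, 83 bp in 1 dpi-dominated and 158 bp in in-between domains, and 140 bp over all joint domains. The rule limits 1 dpi bases in the members, so low sharing there is set in part by the selection. The plot of covered bases per domain shows the members as a sparse group above the line of ratio 2.

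**Figure D1:**
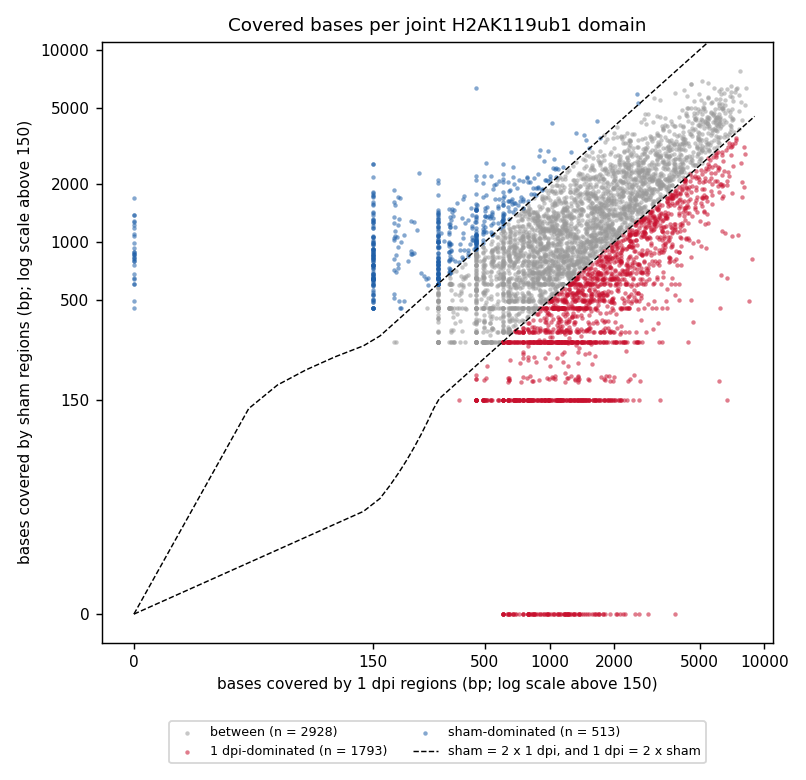
Bases covered by sham regions (vertical axis, bp) against bases covered by 1 dpi regions (horizontal axis, bp) in each of 5234 joint domains; both axes are linear up to 150 bp and logarithmic above, which bends the dashed lines of ratio 2 near the origin. Blue points are the 513 sham-dominated domains, among them 29 at 0 1 dpi bases, red points are the 1793 1 dpi-dominated domains and grey points the 2928 in between.

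The typical member was a loose chain of a few short sham regions with 1 or 2 short 1 dpi regions among them. Sham regions covered a median of 1068 bp per domain (quartiles 792 and 1468 bp, range 453 to 6323 bp) in a median of 5 regions (range 2 to 20). The 1 dpi regions covered a median of 302 bp (quartiles 151 and 491 bp, range 0 to 2575 bp) in a median of 2 regions (range 0 to 15). All regions together covered a median of 9.96% of the span, less than 10% in 258 domains and at least 30% in 4. The median span was 12.6 kb, against 15.8 kb for 1 dpi-dominated domains and 16.1 kb for those in between.

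The ratio of sham to 1 dpi bases had a median of 2.98 in the 484 domains with a 1 dpi base and reached 16.8. It lay from 2 to under 2.5 in 163 domains, from 2.5 to under 3 in 83, from 3 to under 4 in 94, from 4 to under 6 in 91 and at 6 or more in 53. In 29 domains there was no 1 dpi region. Counted in regions rather than bases, 488 domains had more sham than 1 dpi regions, 17 had equal numbers and 8 had fewer. On its inner side, 10 domains tied at a ratio of exactly 2, each with 604 sham and 302 1 dpi bases, among them those on chromosome 12 (39835182 to 39848004) and chromosome 13 (74232703 to 74244396). Just outside were a domain on chromosome 16 (60753773 to 60770860) with 3579 and 1791 bp and one on chromosome 6 (139806017 to 139817650) with 602 and 302 bp. A ratio from 2 to under 2.2 was held by 83 domains and a ratio from 1.8 to under 2 by 91, so the set has no natural edge at this limit.

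Many of the domains were joined with the help of 1 dpi regions. When sham regions alone were linked over gaps of up to 5 kb, they still spanned 10 kb in 248 of the 513 domains, or 48.3% (44.0 to 52.7%). In 1 dpi-dominated domains, 1 dpi regions alone did so in 76.4% (74.4 to 78.3%). In the domains in between, sham regions alone did so in 30.6% and 1 dpi regions alone in 47.4%. Sham regions formed both outer edges of 269 sham-dominated domains and 1 edge of 225, and in 19 domains both edges were 1 dpi regions. Within a domain, neighbouring sham regions were a median of 2683 bp apart. That gap was 2212 bp between sham regions of the domains in between and 1551 bp between 1 dpi regions of 1 dpi-dominated domains.

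The share of sham-dominated domains declined with length. They were 17.9% (15.9 to 20.1%) of the 1252 joint domains of 10 to under 12 kb, 11.5% of the 1195 domains of 12 to 15 kb and 107 of the 1189 domains of 15 to 20 kb. Of the 956 domains of 20 to 30 kb, 3.97% were sham-dominated, and of the 642 domains of 30 kb or more, 1.09% (0.529 to 2.23%). The share of 1 dpi-dominated domains changed little over the same classes, from 32.4% to 35.4%.

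Among all members, the domain on chromosome 6 (20792851 to 20804761) had the most sham bases, with 6323 bp against 453 bp at 1 dpi and a ratio of 14.0. It spanned 11.9 kb, of which 54.4% was covered, and held 8 sham regions. The widest of them, at 20794994 to 20797208, measured 2215 bp and was the widest sham region of the whole set. A further one, at 20802023 to 20804116, measured 2094 bp and was overlapped by no 1 dpi region. The 3 1 dpi regions of the domain were all single calling windows of 151 bp, the shortest length that occurs. The first-listed sham region of the domain stood at place 20 of 82046 and the first-listed 1 dpi region at place 17068 of 99340. Within 5 to 50 kb outside the domain, the lists were close, with 2229 sham and 2129 1 dpi bases.

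The other domains rich in sham bases also held several 1 dpi regions. On chromosome 13 (112992490 to 113008974), 11 sham regions covered 5266 bp and 9 1 dpi regions covered 2575 bp, with 1619 bp in common. Its flanks at 5 to 50 kb held 1829 sham and 554 1 dpi bases. On chromosome 7 (711926 to 726230), 11 sham regions covered 4245 bp and 6 1 dpi regions 1669 bp, of which 1365 bp were common, and the flanks held 970 sham and 0 1 dpi bases. On chromosome 13 (102180744 to 102199918), 7 sham regions covered 4146 bp, with a widest region of 1714 bp, against 1027 bp in 6 1 dpi regions. In the first of these domains the widest 1 dpi region measured 630 bp, in the second 685 bp and in the third 193 bp.

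The longest member lay on chromosome 3 (177520205 to 177576922) and spanned 56.7 kb. It held 20 sham regions covering 5913 bp and 15 1 dpi regions covering 2554 bp, and the sham regions alone formed a chain of 55.6 kb. It was also second in sham bases. Its regions were scattered over the whole length, and 4 of the 20 sham regions were overlapped by a 1 dpi region. The other long members had fewer regions. The domain on chromosome 12 (44257402 to 44294019) spanned 36.6 kb, with 2802 sham and 892 1 dpi bases, and none of its 12 sham regions was overlapped. It ended 5.27 kb from a joint domain of 122 kb with 16.9 kb of sham and 14.6 kb of 1 dpi coverage, just beyond the merging distance. A domain of 33.1 kb on the same chromosome (44687687 to 44720785) held 3458 sham and 1718 1 dpi bases.

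On chromosome 17 (15899527 to 15935775) a domain of 36.2 kb held 10 sham regions covering 2064 bp and 5 1 dpi regions covering 755 bp, with no base in common. The next joint domain, 17.8 kb away (15953615 to 15969495), was sham-dominated as well, with 1.38 kb of sham and 0.302 kb of 1 dpi coverage. On chromosome 11 (89559068 to 89592822) a domain of 33.8 kb held 2946 sham and 1262 1 dpi bases, whereas its flanks at 5 to 50 kb held 6488 sham and 12196 1 dpi bases. A sham-dominated domain could thus have heavier 1 dpi than sham coverage in its flanks at 5 to 50 kb.

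**Figure D2:**
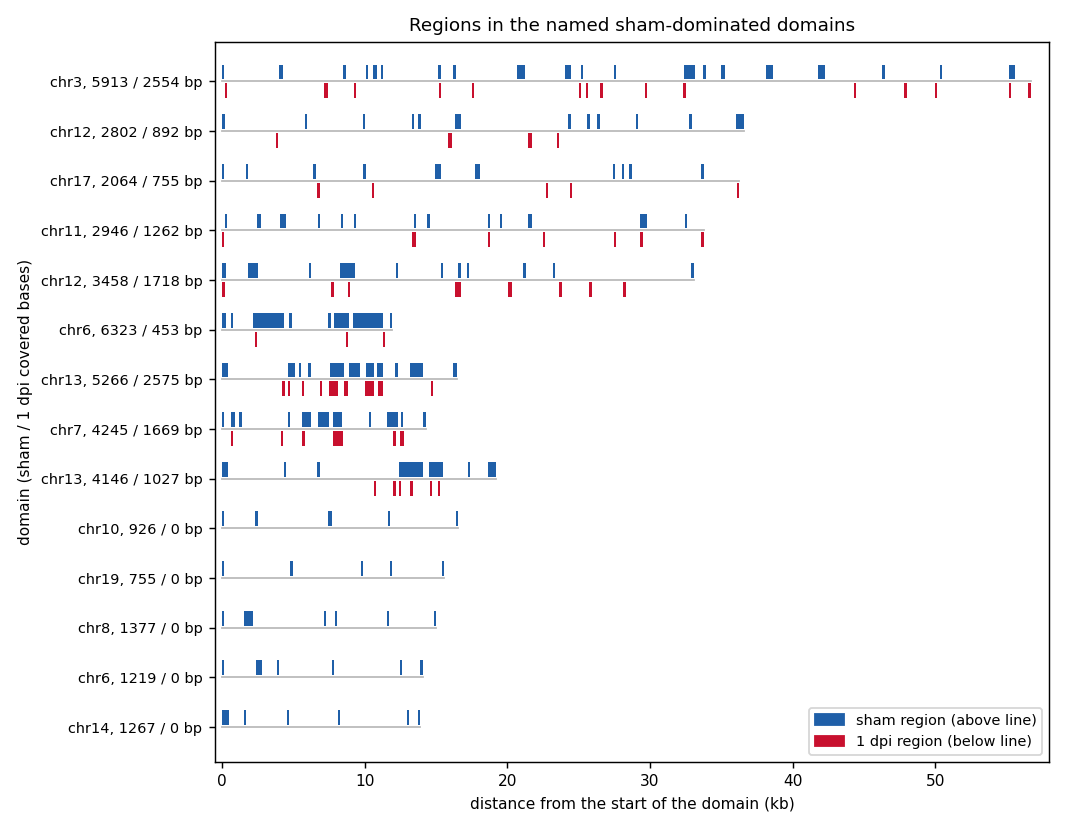
Sham regions (blue, above the line) and 1 dpi regions (red, below the line) in 14 sham-dominated domains, drawn to scale by distance from the start of the domain (kb); labels give the chromosome and the bases covered in sham and at 1 dpi. The first 5 are the longest, the next 4 complete the 5 with the most sham bases, and the last 5 are the longest without a 1 dpi region, which hold 5 or 6 sham regions each.

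The 29 domains without any 1 dpi region were short and sparse. They spanned up to 16.6 kb (median 11.4 kb) and held 3 to 6 sham regions covering 453 to 1687 bp (median 867 bp). They lay on 12 chromosomes, with 6 on chromosome 1, 5 on chromosome 4 and 4 on chromosome 6. The nearest 1 dpi region was 6.16 to 114 kb away (median 18.3 kb). In the flanks at 5 to 50 kb, 22 of the 29 had more sham than 1 dpi bases and 6 had fewer. Over all 513 sham-dominated domains, 274 (53.4%) had more sham bases there and 231 had fewer. Among the domains in between, 30.2% had more.

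The longest domain of this kind was on chromosome 10 (53937191 to 53953752), where 5 sham regions covered 926 bp over 16.6 kb and the nearest 1 dpi region was 39.3 kb away. A domain on chromosome 19 (72179447 to 72195011) had 5 sham regions, each a single window, and 755 bp covered. The domain on chromosome 8 (125366574 to 125381586) had 6 regions covering 1377 bp, the widest 622 bp. On chromosome 6 (46959156 to 46973208), 6 regions covered 1219 bp with the nearest 1 dpi region at 25.2 kb, and on chromosome 14 (36907828 to 36921676), 6 regions covered 1267 bp with the nearest at 6.16 kb. The first-listed sham region of these 5 domains stood between 3.86 and 33.4% of the sham list.

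Sham regions of the members were slightly wider than those of the whole list, and 1 dpi regions were shorter. Width enters the covered bases that the rule used, so these differences are set in part by the selection. Mean width of the 2544 sham regions was 249 bp (SD 185 bp), compared with 229 bp (SD 181 bp) over the whole sham list. Single windows made up 53.6% (51.6 to 55.5%) of them and 60.7% of the list. A width of 500 bp or more was reached by 218, or 8.57% (7.54 to 9.72%), against 6.52% of the list. Such widths were not particular to the members. In the domains in between, sham regions had a mean width of 259 bp, 52.7% were single windows and 10.1% reached 500 bp. The 1128 1 dpi regions had a mean width of 174 bp (SD 58.9 bp), against 220 bp (SD 198 bp) over the whole 1 dpi list, and 72.1% (69.4 to 74.6%) were single windows. A width of 500 bp was reached by 7 of them, or 0.621%, against 4.80% of the list. The 1 dpi regions of the domains in between had a mean width of 235 bp, and 6.34% reached 500 bp. Short regions in the sparser list were also found in 1 dpi-dominated domains, where sham regions had a mean width of 201 bp, 64.6% were single windows and 3.13% reached 500 bp.

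Since the rule limits 1 dpi bases, the overlap of regions within the members is set in part by their selection and is given as a description. An overlap of at least 1 bp was found for 259 of 2544, or 10.2% (9.07 to 11.4%), compared with 20.7% over all sham regions and 30.2% in the domains in between. The share was 6.09% (4.94 to 7.49%) for sham regions of a single window and 27.1% (21.6 to 33.3%) for those 500 bp wide or more. In the domains in between it was 21.0% and 61.3%. The mirrored share, that of 1 dpi regions overlapped in 1 dpi-dominated domains, was 11.5%. From the side of injury, 264 of the 1128 1 dpi regions, or 23.4% (21.0 to 26.0%), overlapped a sham region, and so did 23.3% of the 1 dpi regions in the domains in between. Over the whole 1 dpi list the share was 16.8%. The 864 1 dpi regions of the members that did not overlap lay a median of 1440 bp from the nearest sham region, against 1422 bp in the domains in between.

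The order of regions in the deposited lists gave a measure that the rule did not use directly, though it may be linked to width and so to the covered bases. The widest sham regions of the members, of 2215 and 2094 bp, stood at places 20 and 108, whereas one of 226 bp stood at place 15. How far the order follows width was not tested. HOMER, the program that called the regions, sorts them from the highest to the lowest score, but the files name no order and hold no usable score, so the place in the list is only a stand-in for peak height. The sham regions of the members stood at a median of 43.7% of the list from its start, and 26.6% of them fell in the first 20%. The 1 dpi regions stood at a median of 59.5%, with 11.2% in the first 20% of the list and 23.2% in the last. In the domains in between, the medians were 42.9% for sham and 43.4% for 1 dpi regions. There, 26.0% of the sham and 24.7% of the 1 dpi regions fell in the first 20% of their list. The order seen in the members held in mirror image for 1 dpi-dominated domains. In these, 1 dpi regions stood at a median of 43.6% and sham regions at 53.5%, with 13.9% of the latter in the first 20%. In either kind of domain, the list that the rule selected to be sparse was thus the one listed later.

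**Figure D3:**
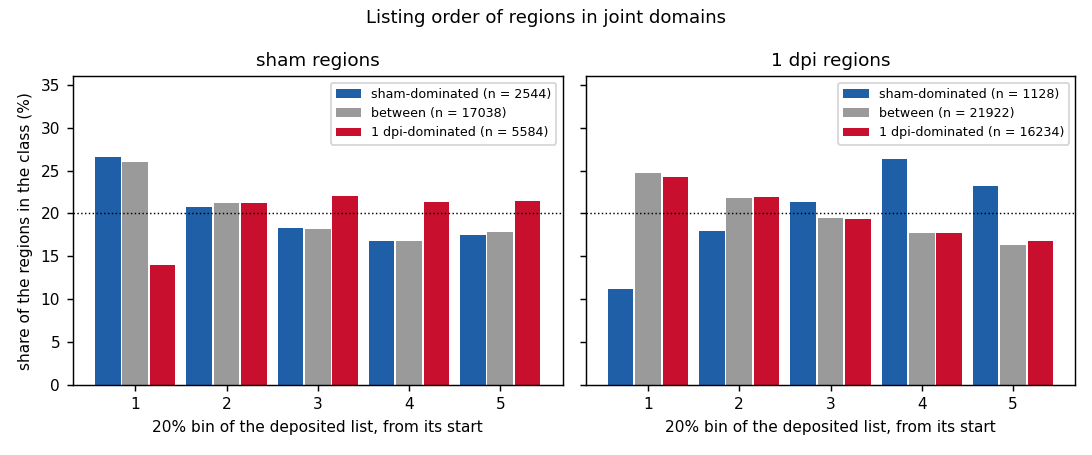
Share of regions (%) in each successive 20% of the deposited list, counted from its start, for sham regions (left) and 1 dpi regions (right) in the 3 kinds of joint domain; bars start at 0 and the dotted line marks 20%. Sham regions of sham-dominated domains (blue) are most frequent in the first bin, at 26.6%, whereas their 1 dpi regions are least frequent there, at 11.2%, and most frequent in the fourth, at 26.3%. Sham regions of in-between domains (grey) are nearly as frequent in the first bin, at 26.0%.

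Regions from the very start of the sham list occurred in a part of the members. A sham region from the first 5% of its list was present in 158 of 513 domains, or 30.8% (27.0 to 34.9%), and in 32.1% of the domains in between. A 1 dpi region from the first 5% of its list was present in 9, or 1.75% (0.926 to 3.30%), against 30.3% of the domains in between. Members held a median of 2 1 dpi regions and domains in between a median of 6, so this presence depends on the selection, and in 1 dpi-dominated domains a sham region from the first 5% was present in 6.58%. The first-listed sham region of any member, at place 15, lay on chromosome 4 (142077672 to 142077897) in a domain of 14.0 kb with 1766 sham and 846 1 dpi bases. This domain, singled out after its values were seen, held a 1 dpi region at place 109 of its list.

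No region lies within 5 kb of a domain, so the regions around a domain were not used to classify that domain. They can belong to other joint domains, which the rule sorted by the same ratio, so the flank values are not independent of the selection. From 5 to 50 kb outside the 513 domains, sham regions covered 207 bp and 1 dpi regions 215 bp per 10 kb, a ratio of 0.965. The ratio was 0.728 around the domains in between and 0.593 around 1 dpi-dominated domains. More sham than 1 dpi bases were found in the flanks of 274 sham-dominated domains, or 53.4% (49.1 to 57.7%), and fewer in 231. In the domains in between, more sham bases were found in 30.2% (28.6 to 31.9%), and in 1 dpi-dominated domains in 18.9% (17.1 to 20.7%). An excess of at least 2-fold, as inside the domains, was present in the flanks of 113 sham-dominated domains, or 22.0%. It was present in the flanks of 8.74% of the domains in between and of 3.57% of 1 dpi-dominated domains.

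Flanks of neighbouring domains can hold other sham-dominated domains, which the rule did use. With only regions outside all joint domains counted, the ratio was 1.12 around sham-dominated domains, 0.802 around those in between and 0.636 around 1 dpi-dominated ones. The side of 1 on which the ratio of the sham-dominated domains fell thus depended on the regions counted, but the order of the 3 kinds of domain was the same in all 6 settings tried. With all flank regions counted, the kinds differed more in 1 dpi than in sham coverage. Sham coverage was then 207, 231 and 218 bp per 10 kb around sham-dominated, in-between and 1 dpi-dominated domains. The 1 dpi coverage was 215, 318 and 368 bp per 10 kb. With only regions outside all joint domains counted, the kinds differed in both lists. Sham coverage fell in the same order, at 111.5, 94.97 and 84.97 bp per 10 kb. The 1 dpi coverage rose, at 99.92, 118.5 and 133.7 bp per 10 kb. With all regions counted from 300 to 500 kb around the sham-dominated domains, sham coverage was 150 bp and 1 dpi coverage 172 bp per 10 kb. This ratio of 0.874 was close to the 0.862 of the whole lists. The 0.862 is no baseline for regions outside all joint domains, since the 5234 joint domains had a lower ratio of 0.687 in sum. A ratio of the whole lists without joint domains was not computed.

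**Figure D4:**
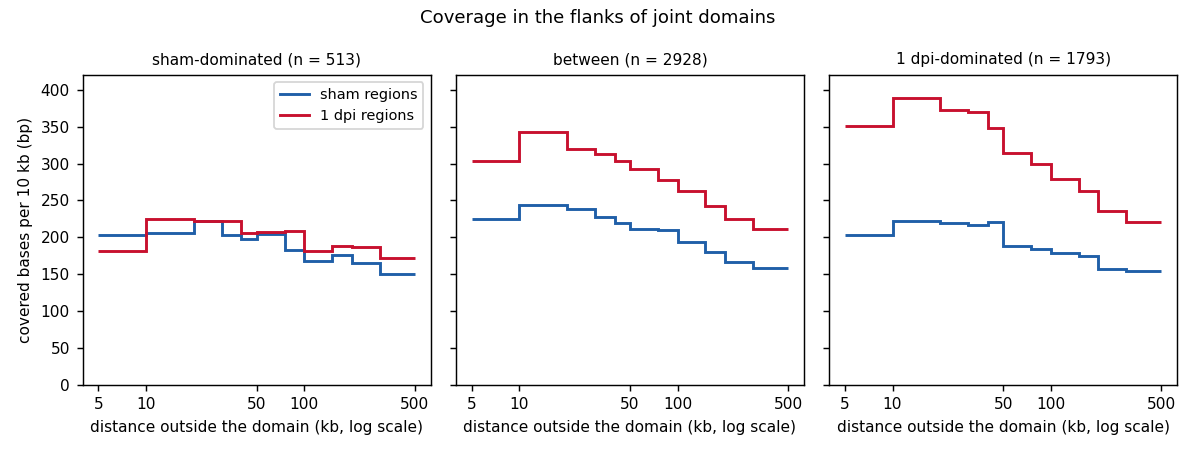
Bases covered by sham (blue) and 1 dpi (red) regions per 10 kb, from 5 to 500 kb outside joint domains (log scale), in panels for the 513 sham-dominated, 2928 in-between and 1793 1 dpi-dominated domains. Around sham-dominated domains the lines lie close together, with sham above from 5 to 10 kb (203 against 181 bp) and 1 dpi above in every bin farther out, down to 150 and 172 bp at 300 to 500 kb; in the other panels the 1 dpi line lies well above throughout.

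Sham-dominated domains were more frequent where regions of both lists together were sparse. With joint domains ranked by the number of regions of both lists from 5 to 500 kb outside them and divided into 5 equal groups, 14.2% (12.3 to 16.5%) were sham-dominated in the sparsest group (up to 97 regions). The share was 11.7%, 10.2% and 6.11% in the next 3 groups and 6.69% (5.33 to 8.36%) in the densest, which had at least 253 regions. The surroundings held a median of 129 regions for sham-dominated domains, 163 for those in between and 174 for 1 dpi-dominated domains. When sham regions alone were counted, the share was 11.1% in the sparsest and 9.46% in the densest group, with the lowest value, 7.26%, in the group next to the densest.

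The nearest joint domain of sham-dominated and of 1 dpi-dominated domains was of the same kind more often than the share over all domains. The nearest other joint domain covering under 10000 bp was sham-dominated for 82 of 513, or 16.0% (13.1 to 19.4%), against 9.80% of all joint domains. It was 1 dpi-dominated for 124, or 24.2% (20.7 to 28.1%), against 34.3%. Around 1 dpi-dominated domains these shares were 6.13% and 42.7%. For the domains in between, the nearest was also in between in 57.7% (55.9 to 59.4%), close to the 55.9% over all joint domains. The distance to that neighbour had a median of 55.6 kb for sham-dominated and 22.6 kb for 1 dpi-dominated domains. The members were nevertheless dispersed, since 28 of the 493 pairs of members that followed each other on a chromosome were within 50 kb and the median distance was 1.77 Mb. For the 29 domains without a 1 dpi region, the nearest joint domain was sham-dominated in 6, in between in 20 and 1 dpi-dominated in 3.

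All 20 autosomes held members. The share of joint domains that were sham-dominated ranged from 4.86% (2.58 to 8.99%) on chromosome 20, with 9 of 185, to 16.2% (11.0 to 23.1%) on chromosome 14, with 23 of 142. Shares above 14% were also found on chromosomes 4, 13, 16, 17 and 19, and shares below 7% on chromosomes 5 and 10. Measured in bases of domains, the order changed, with 13.8% on chromosome 16, 12.7% on chromosome 17 and 12.5% on chromosome 14 at the upper end and 3.72% on chromosome 5 and 3.78% on chromosome 20 at the lower end. Chromosome 1 had the most members, 48 of 587 joint domains. On chromosome X, 0 of 13 joint domains were sham-dominated, which allows a share of up to 23.1%. Across the 20 autosomes, this share and the ratio of sham to 1 dpi bases outside the members, which ranged from 0.710 to 1.07, had a Spearman rho of 0.633 and a Pearson r of 0.505. Bases outside the members include those of the other joint domains, which the same ratio sorted, so the 2 measures are not independent. The autosomes also come from the same 2 lists and share their depth and thresholds, so this is a description.

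**Figure D5:**
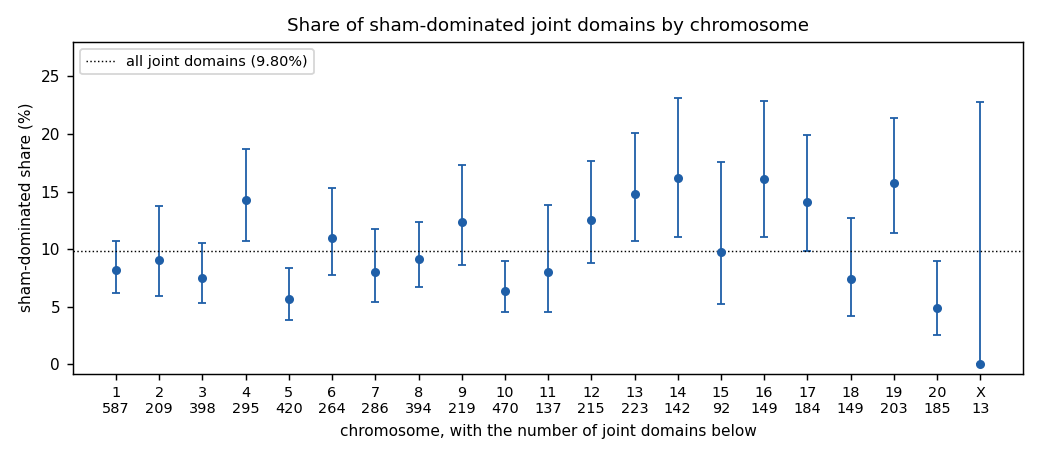
Share of joint domains that were sham-dominated (%) on each chromosome, with Wilson 95% intervals as bars and the number of joint domains under each chromosome name; the dotted line marks the share over all of them, 9.80%. Counted in domains, chromosome 20 is lowest among the autosomes at 4.86% and chromosome 14 highest at 16.2%, and chromosome X, at 0 of 13, has the widest interval.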

How the data were processed

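H2AK119ub1 ChIP and input libraries were prepared after micrococcal nuclease digestion. Per the labels, base calling used CASAVA 1.8.2, and reads were aligned with Bowtie to rn5 and regions called with HOMER, whose versions are not given in the sources used here. Per the file headers, the authors called regions on combined replicates with findPeaks (window 150 bp, minimum distance 370 bp, stitched regions), requiring 4-fold over input and over the surrounding 10000 bp, a Poisson p-value of 0.0001 and a false discovery rate of 0.001. The fragment length was 150 bp in sham and 128 bp at 1 dpi, and the tag limit per base pair 1 and 3. The deposited score column is 1 for every region and was not used. The deposited lists give region starts and ends in bp.

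Regions were merged and compared in Python 3.11.15 with pandas 2.3.3. Merging and grouping were tested on simulated regions. Intervals used scipy 1.17.1. Domains named were the 5 longest, the 5 with most sham bases and the 5 longest without 1 dpi bases. The members, comparisons and lists were chosen with earlier results of these data known. Genes were not analysed here, because the gene table at hand refers to GRCr8 and coordinates were not converted.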

Additional observations from a re-analysis of the deposited data

How the results depend on the processing

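The number of sham-dominated domains depended strongly on their definition, while 1 dpi-dominated domains outnumbered them in every one tried. It was 15 (1.86% of joint domains) with merging within 2 kb, 1924 (21.6%) within 10 kb, 267 (5.10%) at a ratio of at least 3, 830 (15.9%) at 1.5, 45 (2.82%) at a span of at least 20 kb and 118 (7.43%) with regions wider than the single window. The share was 13.2% (597 domains) with equal list lengths by listing order and 8.10% (424) by number of regions. Requiring sham regions alone to span 10 kb, chosen after seeing the data, left 248. The flank ratio of 0.965 rose above 1 with wider regions (1.09), equal list lengths (1.11) and, chosen after seeing the data, regions outside joint domains (1.12). Overlap of sham members was 5.23% with 50% of the region covered and 26.0% within 1 kb. In all, 11 of 31 alternative values stayed within their limits, among them those for single windows, listing order (chosen after seeing the data) and chromosomes 14 and 20, although in bases of domains chromosomes 16 (13.8%) and 5 (3.72%) took their place as highest and lowest. The cause of these changes was not tested.

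No paired analysis was possible because the replicates of a condition had been combined and no value per replicate was used, so no replicate was left out in turn either. No result met a rule for closer inspection, since no group had values per sample. Depth limits every comparison, because it differs 3.88-fold between the same 2 lists.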
